A study of Drosophila melanogaster with 2 samples.

Results

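The sites described here are the peaks of emc fused to eGFP that lie far from the starts of genes. Of the 1865 peaks that the authors kept by irreproducible discovery rate (IDR), a measure of rank agreement between replicates, they are the 225 whose summit was more than 5000 bp from every annotated transcription start of a protein-coding gene. They are called distal peaks below. They made up 12.1% of that list on chromosome arms 2L, 2R, 3L and 3R and chromosomes 4 and X. The remaining 1640 IDR peaks lay within 5000 bp of a start and are called proximal peaks. Within the IDR list the choice rests on position alone, and sequence did not enter it. How the authors applied the IDR step to make the list is not stated, and its lowest signal was 62.74. Pooled peaks beyond 5000 bp that overlapped no IDR peak had signals of up to 62.71. Comparisons with peaks outside the list are therefore shaped by its selection.

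The data came from chromatin immunoprecipitation and sequencing of Drosophila melanogaster embryos aged 0 to 24 h, males and females together. The embryos were of a transgenic line in which extra macrochaetae (emc) carried GFP at its C-terminus, and the precipitation used an antibody against GFP. There were 2 samples in a single group, biological replicates 1 and 3 of the same fly line. Chromatin was sheared by sonication to 200 to 800 bp. Whole embryos were used, so a peak cannot be assigned to a cell type, and no library without the fusion protein was among the samples. No group was compared with another, and the differences between sets of peaks given below are descriptions with no test. Shares carry exact Clopper-Pearson 95% intervals, which treat peaks as independent and cover counting error only. Read depth is not given in the files.

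Without the basic region that bHLH proteins use to contact DNA, emc pairs through its helix-loop-helix with partners such as Daughterless and keeps them from E-boxes, sites of the form CANNTG. It is known for its part in sensory organ formation, wing and vein growth and sex determination. Sequence far from promoters often holds enhancers, which act on genes at a distance, so the nearest gene to a distal peak need not be the gene it acts on.

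The 150 bp around the summits of the strongest or most clustered distal peaks are shown to set the loci discussed below side by side. They are on the forward strand of the dm6 assembly, with each match to CANNTG in capitals.
Vinr locus, strongest summit (chrX:12751339-12751488): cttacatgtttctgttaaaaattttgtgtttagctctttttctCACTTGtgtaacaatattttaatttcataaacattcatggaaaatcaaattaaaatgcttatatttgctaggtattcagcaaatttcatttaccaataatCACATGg
Vinr locus, next summit (chrX:12752272-12752421): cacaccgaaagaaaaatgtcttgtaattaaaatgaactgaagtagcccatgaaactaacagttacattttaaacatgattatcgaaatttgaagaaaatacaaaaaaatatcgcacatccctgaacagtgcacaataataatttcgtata
osa intron (chr3R:17704346-17704495): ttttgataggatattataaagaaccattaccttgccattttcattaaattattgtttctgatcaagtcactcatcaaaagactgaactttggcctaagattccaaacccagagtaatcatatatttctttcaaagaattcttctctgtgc
chinmo upstream, strongest summit (chr2L:1638723-1638872): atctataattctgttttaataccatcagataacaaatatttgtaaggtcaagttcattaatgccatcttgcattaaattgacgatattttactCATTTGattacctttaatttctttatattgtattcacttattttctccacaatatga
chinmo upstream, next summit (chr2L:1632768-1632917): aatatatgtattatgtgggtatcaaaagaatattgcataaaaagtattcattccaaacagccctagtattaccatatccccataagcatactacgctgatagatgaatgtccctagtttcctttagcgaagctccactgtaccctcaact
Near CR31044 (chr3R:29214367-29214516): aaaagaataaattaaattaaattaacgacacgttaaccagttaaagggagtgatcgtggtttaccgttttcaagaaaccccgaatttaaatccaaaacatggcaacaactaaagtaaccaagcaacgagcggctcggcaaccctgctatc
Hr4 intron (chrX:1951863-1952012): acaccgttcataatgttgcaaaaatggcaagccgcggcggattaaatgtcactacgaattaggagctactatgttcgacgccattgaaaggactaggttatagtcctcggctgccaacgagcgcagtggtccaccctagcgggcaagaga
Raf intron (chrX:2304035-2304184): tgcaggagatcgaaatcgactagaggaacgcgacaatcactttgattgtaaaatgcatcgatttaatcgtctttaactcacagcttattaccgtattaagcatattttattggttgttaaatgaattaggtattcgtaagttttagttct
Myc upstream (chrX:3363813-3363962): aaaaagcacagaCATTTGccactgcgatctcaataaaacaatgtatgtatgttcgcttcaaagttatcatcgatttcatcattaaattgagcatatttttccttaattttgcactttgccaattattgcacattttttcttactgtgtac
CG7560 upstream (chr3L:11416844-11416993): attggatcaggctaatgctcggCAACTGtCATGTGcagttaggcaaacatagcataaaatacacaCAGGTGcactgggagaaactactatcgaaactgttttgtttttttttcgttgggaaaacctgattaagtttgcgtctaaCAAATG
Of these 10 windows 4 held an E-box, and the window upstream of CG7560 held 4 of them. The windows were selected, so this count is not a share of distal peaks.

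Distal peaks were sparse and on the whole of slightly lower signal than proximal ones. Sequence beyond 5000 bp of a start made up 46.1% of the 6 chromosomes, 61.7 Mb, and held 3.65 distal IDR peaks per Mb, against 22.7 proximal peaks per Mb of the rest. In the authors' longer pooled list, from before the IDR step, 7971 of 29399 summits (27.1%) were equally far from a start, and 225 of those, 2.82%, were in the IDR list, against 6.34% of all pooled peaks. The signal, the authors' own value for each pooled peak, had a median of 87.6 at distal peaks (quartiles 71.8 and 110) and of 95.3 at proximal peaks (73.9 and 135). These ranges share most of their extent. Of the 225 distal peaks 93 were among the 932 strongest IDR peaks, as were 839 of 1640 proximal peaks. There was 1 distal peak among the 10 strongest IDR peaks and 9 among the 100 strongest.

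Among distal IDR peaks the median signal changed little with distance. The median distance to a start was 9070 bp, and 127 summits lay at 5 to 10 kb, 74 at 10 to 20 kb and 24 beyond 20 kb. Their median signals were 89.3, 86.3 and 85.0. No peak of the IDR list had a signal below 62.7, so these medians cover only peaks above that floor. They do not show how signal varies with distance among weaker peaks. The summits just past the threshold were in introns of Lrch (5010 bp, signal 99.0), the Polycomb group gene Psc (5033 bp, 98.0) and tara (5037 bp, 116). Those just short of it were at ush (4985 bp, 140), Amph (4950 bp, 69.5) and Pak3 (4947 bp, 91.9), and the range of the former lay within that of the latter.

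**Figure D1:**
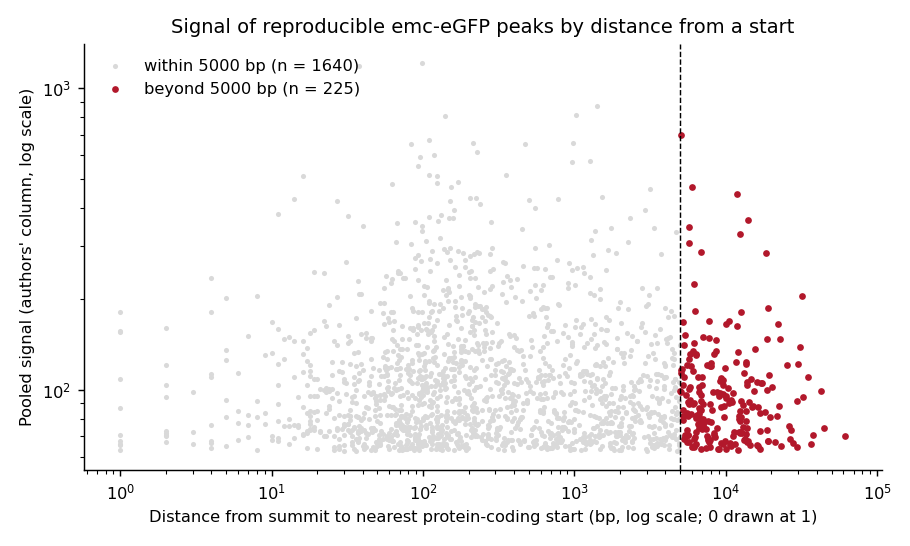
Pooled signal of each IDR peak (log axis) against the distance of its summit from the nearest protein-coding start (log axis, bp). The 225 peaks to the right of the dashed line at 5000 bp are the distal peaks, whose signals ran from 63.1 to 701.

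The strongest distal peaks lay at a pair of overlapping non-coding RNA genes on X. The highest, at X 12751204 to 12751584, had a pooled signal of 701 and ranked 6 in the IDR list. Its signal was 287 in replicate 1 (rank 10) and 418 in replicate 3 (rank 5). It lay inside the long non-coding RNA gene lncRNA:Vinr, 453 bp from the start of lncRNA:CR44619, and 5097 bp from the start of CG4004. The next, at X 12752209 to 12752496, had a signal of 468, with 203 in replicate 1 (rank 32) and 262 in replicate 3 (rank 24). Its summit was inside both lncRNA:Vinr and lncRNA:CR44619, 480 bp from the start of the latter, on the other side of that start. Both peaks stood among the 32 top-ranked peaks of each replicate. The peak at X 12754267 to 12754646, on the side of Paics, had a signal of 143 (48.5 and 97.5 in replicates 1 and 3) and lay inside lncRNA:CR44619. The 3 summits spanned 3043 bp between CG4004 and Paics, an enzyme of purine synthesis.

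The peak ranked next, on 2R at 13035217 to 13035467, stood alone in a long stretch without genes beside the Polycomb group gene Su(z)2. It lay 27437 bp from the body of Su(z)2 and 11908 bp from the nearest start, that of CG13323. Its pooled signal was 445, with 174 in replicate 1 (rank 40) and 269 in replicate 3 (rank 23). The peak in an intron of osa, which encodes a subunit of a SWI/SNF chromatin remodelling complex, had a signal of 365 at 3R 17704295 to 17704519 (133 and 236, ranks 74 and 30). It was 13929 bp from a start of osa and 726 bp from the start of lncRNA:CR46035. A weaker peak of the same osa intron (85.3) was 80 bp from the start of lncRNA:CR46036.

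The other strong distal peaks lay in or near genes of varied function. A peak in introns shared by Mi-2, the ATPase of the NuRD complex, and Su(Tpl), an elongation factor, had a signal of 223 (113 and 107 in the replicates, ranks 104 and 218). A peak between dati and the Wnt coactivator gene lgs on chromosome 4 had 186 (93.9 and 87.8, ranks 161 and 362). Peaks in introns of the corepressor genes Smr and Gug had 182 and 169. For Smr the replicates gave 73.3 (rank 267) and 106 (rank 227), and for Gug 55.3 (rank 487) and 117 (rank 176). Of the strongest 20, 4 more lay at chinmo and Hr4, described with the clusters. The remainder lay in introns of CG32486 (signal 345), B4 (180) and Lrch (167), or outside protein-coding genes. Outside genes, the nearest starts were those of eEF1gamma, a subunit of a translation elongation factor (306, 5730 bp), CG4702 (286, 6840 bp) and CG43245 (204, 31937 bp). Others were nearest to starts of the zinc finger gene noc (163, 11930 bp) and the sugar transporter Glut3 (169, 10552 bp). The summit nearest to Glut3 lay 8842 bp from the body of Glut3 and 8351 bp from that of the Hox gene abd-A. In these 20 the replicate 1 rank ran from 10 to 487 and the replicate 3 rank from 5 to 439, so all of them were among the strongest peaks of both lists, which held about 30000 peaks each.

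Distal peaks lay mostly in introns. A summit in an intron of a protein-coding gene was found for 149 of 225, 66.2% (59.6 to 72.4), and a summit between genes for 55, 24.4% (19.0 to 30.6). Introns made up 48.9% of all sequence beyond 5000 bp of a start and held 53.1% (52.0 to 54.2) of the 7709 weaker distal peaks, which are the pooled peaks this far from a start that overlapped no IDR peak. Of the other distal IDR summits, 15 (6.67%) lay in non-coding RNA genes outside protein-coding ones, 5 in untranslated exons and 1 in a coding exon, of klar. Coding exons held 0.444% of distal IDR summits (0.0113 to 2.45) and 11.3% (10.6 to 12.0) of weaker distal summits, while exons of all kinds made up 8.98% of the sequence. Weaker distal windows were also richer in GC, at 45.5% ± 8.24 (SD over 7709) against 37.9% ± 5.87 (SD over 225), and the part of GC in these shares was not tested. The 5 untranslated exons were of baz, Myc, Myd88 and Cals on chromosome 4, which held 2 of them with overlapping intervals.

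**Figure D2:**
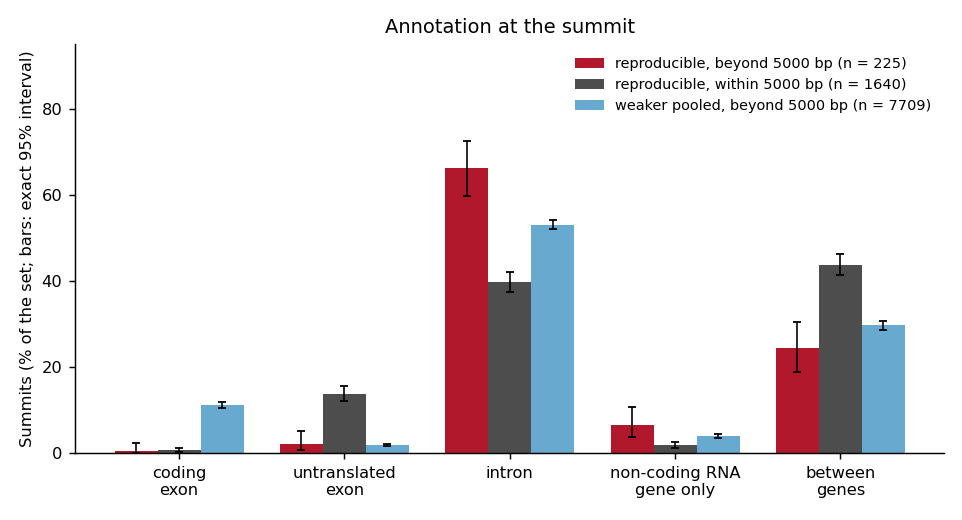
Share of summits in each annotation class (percent, y axis) for distal IDR peaks, proximal IDR peaks and weaker distal peaks, with exact 95% intervals as error bars. Introns held 66.2% of distal IDR peaks, 39.8% of proximal ones and 53.1% of weaker distal ones.

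The introns that held distal peaks were long, and most of these peaks were nearest to a start of the gene they lay in. The choice of summits more than 5000 bp from every start itself favours long introns and long stretches without genes. Their lengths were not measured for weaker distal peaks or for the sequence at large. The median length of the shortest intron around a summit was 17439 bp, with quartiles of 10387 and 29170 bp. Of the 149 intronic summits, 83 were in an intron that is the first of some transcript of the host. For 109 (73.2%) the nearest protein-coding start was the host's own, and for the other 40 it belonged to another gene. Relative to the nearest start, 150 distal summits were downstream and 75 upstream. These counts have no counterpart for weaker distal peaks or for all sequence this far from a start, so they are not read as preferences. For the 70 summits outside protein-coding genes the stretch free of such genes had a median length of 29391 bp over summits, some of which share a stretch, and 49 of the 70 summits lay in one longer than 20 kb.

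The farthest summits had signals of 65.8 to 99.1 and lay in or beside large genes, which a long distance from any start favours. The farthest, 61711 bp from the start of Glt, was in an intron of the axon guidance gene Sema1a (signal 70.2, with 29.6 and 35.7 in replicates 1 and 3). Less far were summits in introns of the zinc finger genes jing (44648 bp, signal 74.7) and mamo (42318 bp, 99.1). A summit between the BTB genes bab1 and bab2, 838 bp past the end of bab2, lay 37685 bp from a start (70.9), and one in kirre, a cell adhesion gene of myoblast fusion, lay 36655 bp away (65.8). The replicate 1 ranks of these 5 ran from 916 to 1638 and the replicate 3 ranks from 1056 to 2197. All 5 had lower signals in each list than the 20 strongest distal peaks.

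A minority of distal peaks lay at starts of non-coding RNA genes. A start of a non-coding RNA gene lay within 1000 bp of 22 distal summits, 9.78% (6.23 to 14.4), against 8.60% of proximal summits (7.29 to 10.1), 5.12% of weaker distal summits (4.64 to 5.64) and 3.06% of all sequence this far from protein-coding starts. In 20 of the 22 the nearest such gene was a long non-coding RNA. The summit was inside the span of a non-coding RNA gene at 26 distal peaks, 11.6% (7.69 to 16.5), against 3.17% of proximal (2.38 to 4.14) and 5.84% of weaker distal peaks (5.32 to 6.38). How much of the sequence far from protein-coding starts such spans cover was not measured. No distal summit lay in an annotated transposable element, which allows a share of up to 1.63%.

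Within 500 bp of a non-coding RNA start there were 17 distal summits. Besides both peaks at lncRNA:CR44619, the strongest was 120 bp from lncRNA:CR31044 on 3R at 29214329 to 29214550, with a signal of 306 (119 in replicate 1, rank 93, and 186 in replicate 3, rank 63). A peak 193 bp from lncRNA:CR44917, in the wide gene-poor stretch beyond tsh, had 138, and a peak 383 bp from lncRNA:CR44676, between CG9300 and the potassium channel gene Shal, had 132. Their replicate ranks were 394 and 453 for the former and 705 and 340 for the latter. Peaks at lncRNA:CR46243 upstream of Myc (202 bp, signal 109) and lncRNA:CR43838 near the gap junction gene shakB (388 bp, 109) followed.

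Further peaks of this kind lay in introns of signalling genes. They were 390 bp from lncRNA:CR44478 in Socs36E, an inhibitor of JAK/STAT signalling (103), 100 bp from lncRNA:CR45888 in the glypican gene dlp (signal 101.4), 75 bp from lncRNA:CR44331 in puc, a phosphatase of the JNK pathway (78.6), and 83 bp from lncRNA:CR45808 in the kinase gene Hipk (76.9). Others were at lncRNA:CR45251 (319 bp, signal 87.6), lncRNA:CR46036 (80 bp, 85.3), snoRNA:185 (2 bp, 75.4) and lncRNA:CR44363 (500 bp, 69.6). At the 15 distal peaks outside protein-coding genes but inside non-coding RNA genes, the median signal was 109, with a range from 66.7 to 701. The medians of intronic and intergenic peaks were 85.8 and 87.6, and the 3 sets overlapped widely.

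Some distal peaks came in clusters. With gaps of up to 10000 bp between neighbouring summits, 60 of 225 fell into 24 clusters, of which 14 had 2 members, 9 had 3 and 1 had 5. In none of them did a proximal IDR peak lie between the members, and the 10 clusters of 3 or more held 32 peaks. Counting proximal peaks too, 100 distal summits (44.4%) had another IDR summit within 10000 bp. The nearest other IDR summit was a median of 11922 bp away for distal peaks and 9338 bp for proximal ones. Having such a neighbour was thus not particular to distal peaks. Overlapping intervals, which are neighbouring summits of the same place, made up 3 pairs, at Lrch, at Cals and upstream of Myc, so that the 225 peaks stood for 222 places. In each of the 3 pairs both members matched the same peak of replicate 1 and the same peak of replicate 3.

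The largest cluster lay upstream of chinmo, which encodes a BTB zinc finger protein known for the temporal identity of neurons. Its 5 summits spanned 18577 bp of the stretch between RFeSP, a Rieske iron-sulphur protein gene, and chinmo, and 4 of them had chinmo as the nearest start, at 7786 to 18415 bp. Their pooled signals were 328, 284, 149, 105 and 66.7. In replicate 1 the same places had 94.6, 115, 41.8, 49.1 and 32.1, and in replicate 3 they had 232, 170, 97.2, 54.6 and 33.7. The summit with the highest pooled signal ranked 33 in replicate 3 but 160 in replicate 1, where the next summit was higher at rank 99. The pooled list held 14 summits in this span, these 5 included.

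Hr4, a nuclear receptor gene of the ecdysone response, had 5 distal peaks in its introns, more than any other gene. Their pooled signals were 165, 165, 131, 97.7 and 78.3, at 5831 to 21998 bp from a start. In replicate 1 they had 82.2, 55.5, 58.8, 44.4 and 37.4, and in replicate 3 they had 83.2, 109, 70.6, 50.1 and 40.7. The last of these was the weakest in both replicates, at ranks 1082 and 1642. The 3 nearest to each other spanned 5347 bp.

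Myc, the growth regulator of the bHLH-zipper family, was the nearest gene to 6 distal peaks, the highest number of any gene. Of these, 3 lay 9271 to 12622 bp upstream, with signals of 109, 91.5 and 72.3, and 3 lay 8737 to 26384 bp downstream, with 75.8, 74.8 and 63.4. The downstream peaks had 32.7, 37.3 and 32.0 in replicate 1 and 39.3, 40.6 and 30.3 in replicate 3, and the strongest upstream peak had 58.8 and 51.9. The upstream peaks of 91.5 and 72.3 overlap each other and match the same replicate peaks, with 44.0 in replicate 1 and 51.6 in replicate 3. Raf, the kinase between Ras and the MAP kinase cascade, held 3 within 3374 bp of its long intron, with 146, 140 and 85.9. In replicate 1 these had 74.1, 66.0 and 42.1, and in replicate 3 they had 74.1, 81.4 and 46.8, so the third was the weakest in both. Proximal IDR peaks lay beside them, at -1526, -3011 and -4344 bp from the first distal summit, with pooled signals of 66.7, 308 and 118. The peak of 308 was stronger than all the distal peaks of Raf.

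The other clusters of 3 had signals of 66.0 to 133. In an intron of simj, which encodes a NuRD subunit, 3 peaks had 133, 120 and 76.8 within 5069 bp. Upstream of CG7560 3 peaks had 98.1, 86.1 and 68.2 within 1471 bp, and beside CG6163 3 peaks had 123, 87.6 and 67.1 within 3141 bp. In tara, a transcriptional cofactor gene of the cell cycle and the trithorax group, 3 clustered peaks had 92.3, 82.2 and 66.0, and a peak elsewhere in the gene had 116. The gene rdx, which encodes an adapter for degradation of the Hedgehog effector Ci, held 3 peaks in its introns with 114, 65.0 and 64.6. In all, 186 genes were nearest to a distal peak, 23 of them to 2 or more and 9 to 3 or more.

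**Figure D3:**
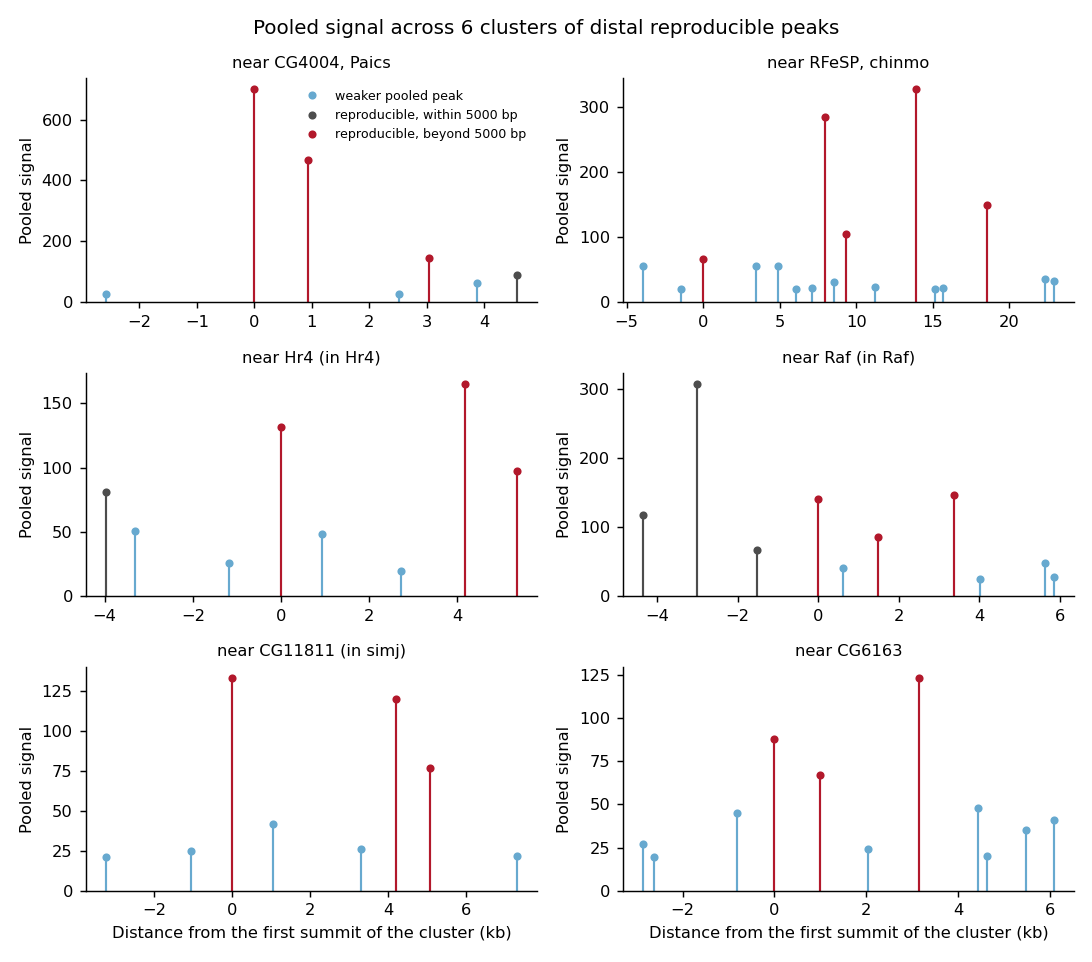
Pooled signal (y axis) of each peak against the distance from the leftmost distal summit of the cluster (kb, x axis), for the 6 clusters of 3 or more with the highest signal. Distal IDR peaks are red, proximal IDR peaks grey and weaker pooled peaks blue, and the pair at the Vinr locus near CG4004 stood above all others at 701 and 468.

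Distal peaks were found in both replicates, though their order there was less alike than that of proximal peaks. Of the 225, 225 overlapped a peak of replicate 3 and 224 a peak of replicate 1, so 99.6% (97.5 to 100) were in both. The share was 99.4% of all IDR peaks. IDR measures rank agreement, so high shares were likely from the outset, although a peak in both lists was not required. How the step was applied here is not stated. A peak among the 1865 top-ranked of each replicate was overlapped by 147, 65.3% (58.7 to 71.5), against 70.1% of all IDR peaks, and 3 distal peaks overlapped a top-ranked peak of neither. Across the 224 in both lists the Spearman rho of signal was 0.455 and the Pearson r of log2 signal 0.613, against 0.641 and 0.749 over 1630 proximal peaks. These values are over a narrower range of signal for distal peaks, share the same 2 libraries and carry no p. The summits in the replicates were a median of 29 bp apart, against 27 bp for proximal peaks. How the lists of the replicates and of the pool were scaled is not stated, so levels are read only within a list.

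**Figure D4:**
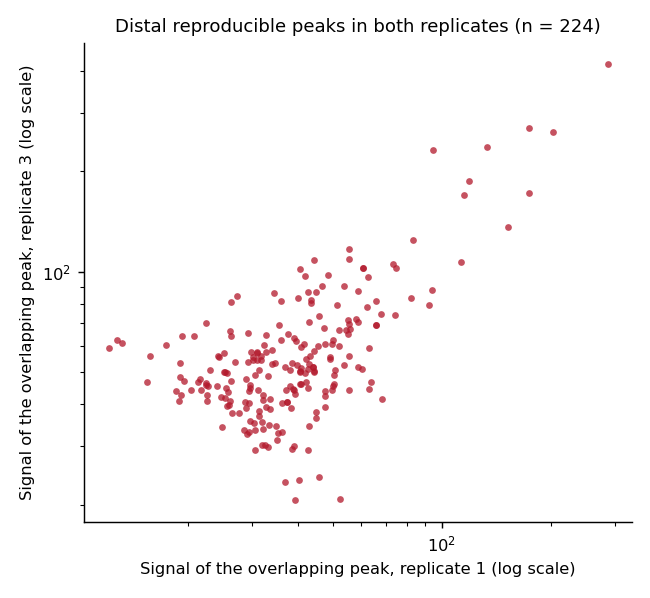
Signal of the peak of replicate 1 (x axis, log) and of replicate 3 (y axis, log) that overlaps each distal IDR peak, 1 point per peak, for the 224 peaks found in both. The points at the far right and top are those of the Vinr locus, with 287 and 418, and the points at the left edge are places ranked beyond 10000 in replicate 1.

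A few distal peaks rested mostly on a single replicate. The ranks differed more than 5-fold at 16 of 224 distal peaks, and at 79 of 1630 proximal ones. The peak near Doc2, a T-box gene of heart and amnioserosa, had a signal of 12.0 in replicate 1 (rank 22613) and 58.9 in replicate 3 (rank 817). An intronic peak of bun, a TSC22-family gene, had 12.7 (rank 19728) and 62.6 (rank 708), and the peak at snoRNA:185 had 13.1 (rank 18198) and 61.0 (rank 755). An intronic peak of Mnt, a bHLH-zipper partner of Max, had 15.4 (rank 11121) and 46.7 (rank 1272). In the opposite direction an intronic peak of trol, which encodes perlecan, had 52.5 in replicate 1 (rank 542) and 20.9 in replicate 3 (rank 6376). The peak without a counterpart in replicate 1 was the one at lncRNA:CR44363, with 54.6 (rank 940) in replicate 3. Ranks beyond 5000 were held by 12 distal peaks in replicate 1 and by 2 in replicate 3.

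Chromosome X held a larger share of distal peaks than of the sequence searched. It held 54 of 225, 24.0% (18.6 to 30.1), or 5.12 per Mb of its sequence beyond 5000 bp of a start, against 17.1% of all such sequence. On the other chromosomes there were 2.81 (2R) to 4.46 (chromosome 4, with 3 peaks) per Mb. X held 296 of 1640 proximal peaks, 18.05% (16.2 to 19.997), and 13.5% of weaker distal ones (12.7 to 14.3). The share depended on the replicate, with 54 of 235 distal peaks, 23.0%, among the top-ranked peaks of replicate 1 alone and 45 of 226, 19.9%, among those of replicate 3 alone. The clusters at Hr4, Raf, Myc and the Vinr locus are all on X, and peaks within a cluster are not independent places. The embryos were of both sexes, and counts per Mb make no allowance for the single X of males.

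Genes of developmental signalling and of the ecdysone response were among those with distal peaks, as were many other long genes. Over all protein-coding genes, 226 of 13945, 1.62%, were nearest to or host of a distal peak, but of the 1977 genes longer than 10000 bp it was 143, 7.23% (6.13 to 8.46). Gene lists are therefore read over genes of that length, but this cut does not match length within it. Over all genes of a list, median length ran from 3181.5 bp (bHLH) to 38894 bp (axon guidance and adhesion). It was 2166 bp over all protein-coding genes. The part of length in the shares below was not tested. Of 18 such genes of nuclear receptors and the ecdysone response 6 had a distal peak, 33.3% (13.3 to 59.0). These were Hr4 (165), Hr3 (123) and EcR (120), the ecdysone receptor, with Eip75B (66.7), ftz-f1 (65.5) and the kinase gene Eip63E (64.9). All of these peaks lay in introns of the named gene.

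Of 18 long genes of EGFR, FGF and Ras signalling 6 had a distal peak, 33.3% (13.3 to 59.0). They were S, which carries the ligand Spitz through the secretory pathway (152), Raf (146), the repressor gene cic (98.6), the ETS factor gene pnt (79.7), the ligand gene vn (70.3) and the inhibitor gene sty (64.6). Of 12 long genes of BMP and activin signalling 5 had one, 41.7% (15.2 to 72.3). They were the glypican genes dlp (131) and dally (73.3), the inhibitory Smad gene Dad (121) and the extracellular regulators sog (89.3) and cv-2 (71.3). At cv-2 replicate 1 had 19.0 at rank 5436 and replicate 3 53.3 at rank 981, so this peak rested mainly on replicate 3.

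The bHLH list, to which emc belongs, had 5 of 15 long genes with a distal peak, 33.3% (11.8 to 61.6). They were the clock repressor gene cwo (121), Myc (109), the hypoxia factor gene sima (102), crp (89.9) and Mnt (65.0). Among Wnt, Hedgehog and Hippo genes it was 5 of 21 long ones, with fz, a Wnt receptor (120), ex (97.8), wts (81.4) and kibra (67.7) of the Hippo pathway and ptc (68.6), and also the shorter lgs (186). Growth and insulin genes had 3 of 7, tara (116), Myc (109) and the insulin receptor gene InR (66.99). The intervals of these lists are wide, with 3 to 6 genes behind each, and genes such as Myc and ptc count in more than 1 list.

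The other lists had lower shares. Axon guidance and adhesion genes had 8 of 56 long ones (14.3%; 6.38 to 26.2), the strongest at beat-Ib (126) and side (121), and neuronal fate and glia genes 4 of 25, led by chinmo (328) and mamo (99.1). Segmentation and Hox genes had 3 of 20, hth (87.4), Antp (84.4) and ptc (68.6), and chromatin and Polycomb genes 3 of 16, osa (365), Mi-2 (223) and Psc (98.0). Mesoderm and muscle genes had 2 of 20, Notch pathway genes 1 of 11 (N, 90.4), gut, tracheal and epidermal regulators 1 of 15 (ct, 87.5) and forkhead genes none of 3. The lists were chosen with earlier results of these data known, genes within them share loci, and their shares were not tested.

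Distal summits, with 100 bp on either side, held E-boxes at a share close to that of other sequence. CANNTG was found on either strand in 152 of 225, 67.6% (61.0 to 73.6), in 62.9% of proximal windows (60.5 to 65.2), in 68.4% of weaker distal windows (67.3 to 69.4) and in 61.4% of 302764 windows of this length that tile all sequence beyond 5000 bp of a start. In windows shifted by 1000 bp to either side of distal summits it was 70.2% and 67.1%. The form CAGCTG, contained in CANNTG, was in 11 distal windows, 4.89% (2.47 to 8.58), against 11.04% of proximal (9.56 to 12.7) and 10.1% of weaker distal windows (9.42 to 10.8). The tiled sequence had 7.25% and the shifted windows 10.2% and 6.22%, which are not all outside the interval. CACCTG was in 7.11%, CATATG in 8.44% and CACGTG in 1.78% of distal windows, against 6.69%, 5.50% and 2.18% of the tiled sequence.

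A pair of promoter words found at proximal peaks had no match at distal ones. TATCGATA, the core of the element bound by DREF at housekeeping promoters, was in 0 of 225 distal windows, which allows up to 1.63%, and in 99 of 1640 proximal ones, 6.04% (4.93 to 7.30). GGTCACAC, the core of the M1BP motif, was likewise in 0 of 225 and in 48 of 1640, 2.93% (2.17 to 3.86). The tiled distal sequence held them in 0.439% and 0.292% of windows, both below the 1.63% that a count of 0 in 225 allows, so a difference from that sequence was not detectable at this number of peaks. GAGAG, the core of the GAGA factor site, was in 26.7% of distal (21.0 to 33.0), 23.5% of proximal and 21.6% of tiled windows. The repeat CACACACA was in 7.56% (4.46 to 11.8), 3.72% and 4.34%, and in 6.62% of weaker distal windows and 6.22% and 5.33% of the shifted ones. TTATCG was in 9.33% of distal and 7.72% of tiled windows. GATAAG was in 8.89% and 7.71%. TGGGAA, a core of the Su(H) site, was in 11.6% and 11.9%. The AP-1 word, TGANTCA, was in 9 of 225 distal windows (1.85 to 7.46) and in 3.64% of tiled ones. For these 4 words the tiled share lay within the interval of the distal one.

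CAGGTAG, the word bound by Zelda, which opens chromatin in the early embryo, was in 7 distal windows, 3.11% (1.26 to 6.30). It was in 0.671% of proximal (0.335 to 1.197), 0.947% of weaker distal (0.743 to 1.19) and 0.897% of tiled windows, and in 1 window (0.444%) of each shifted set. Among the top-ranked peaks of replicate 1 alone it was in 8 of 235 distal windows (3.40%), but of replicate 3 alone in 3 of 226 (1.33%), so the share depended on the replicate. It is shown in capitals with 10 bases on either side, read 5′ to 3′ on the strand that holds it, for 6 of the 7 peaks, to let the bases around it be compared.
Between Glut3 and abd-A, reverse strand (chr3R:16798872-16798898): cccctttcggCAGGTAGctcaagagct
Upstream of chinmo, reverse strand (chr2L:1634134-1634160): ataataatgaCAGGTAGtttgtctatg
Beside CG6163, reverse strand (chr3L:11350138-11350164): tttaaatagtCAGGTAGataaaccaca
Intron of kibra, reverse strand (chr3R:14707108-14707134): gagtatgtaaCAGGTAGaacgaagcct
Between upd3 and upd1, reverse strand (chrX:18294296-18294322): ccagaaaaccCAGGTAGcgaatgtgga
Intron of rdx, forward strand (chr3R:13999775-13999801): atgttcaagcCAGGTAGcaaaatattt
The pooled signals of these peaks were 169, 105, 87.6, 67.7, 67.5 and 65.0 in the same order. In replicate 1 they had 92.3, 49.1, 44.5, 35.4, 25.6 and 33.1, and in replicate 3 they had 79.6, 54.6, 58.0, 32.8, 39.6 and 29.7. All of them except the first ranked beyond 500 in both replicates. The word was centred 3 to 89 bp from the summit, and nearest to it in kibra and rdx. The seventh peak was in an untranslated exon of Cals on chromosome 4 (104).

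**Figure D5:**
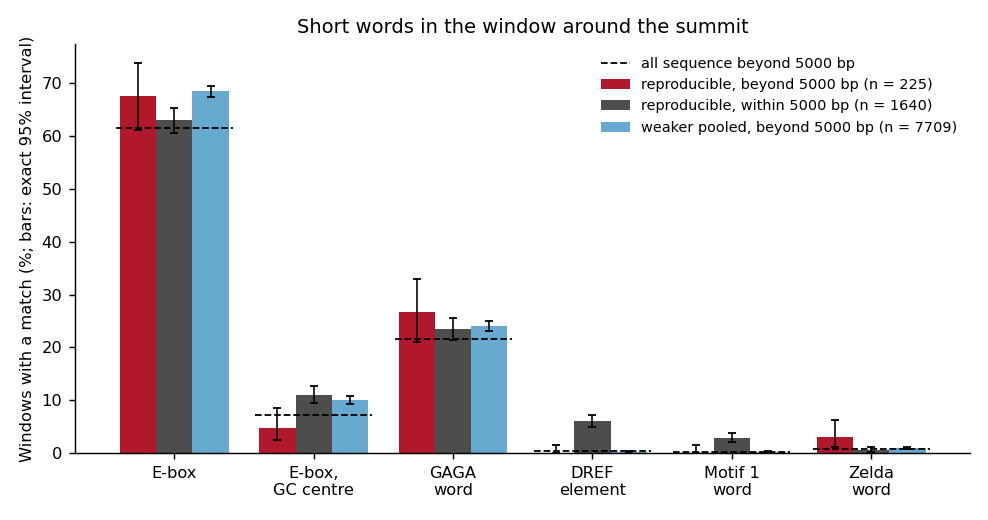
Share of windows of 100 bp on either side of the summit with a match to each word (percent, y axis) for distal IDR, proximal IDR and weaker distal peaks, with exact 95% intervals as error bars. The dashed lines give the share in tiled sequence beyond 5000 bp of a start. The DREF and Motif 1 words were found in 0 distal windows and the Zelda word in 3.11%.

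Distal summits were poor in GC. The mean was 37.9% ± 5.87 (SD over 225 windows), the same as the 37.9% ± 6.64 of proximal summits, and below the 41.2% ± 8.63 of the tiled distal sequence. Windows shifted by 1000 bp to either side had 40.6% ± 8.06 and 40.2% ± 8.48. Single windows ranged from 24.9% at the strongest chinmo summit to 58.7%. Another pooled summit lay within 1000 bp of 106 of 225 distal summits (47.1%). No such share is at hand for proximal peaks, so this one is not read as high or low. Weaker pooled peaks numbered 125 per Mb beyond 5000 bp of a start and 271 per Mb within it.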

How the data were processed

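Peak lists of 2 samples of 1 group were used, with 1 list per replicate, 1 pooled list and 1 list passing the IDR threshold, all on dm6 and restricted to 6 chromosomes. The signal of each peak, and its −log10 q, which broke ties in rank, are values the authors deposited. Their scaling is not stated, so levels are compared by rank within a list. The replicate lists held 29999 and 30000 peaks on these chromosomes. Read depth is unknown. The sources used here do not name an aligner, a peak caller or an IDR cutoff. Lists on dm3 were not used here. The labels call the replicates biological but describe no separate collections, so their spread may be technical.

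Starts, exons and non-coding RNA genes came from Ensembl release 115 (annotation 6.54), and sequence from the Release 6 assembly. Coordinates are 1-based. Overlap was counted from 1 bp, intron class required that no transcript has an exon at the summit, and clusters joined summits up to 10000 bp apart. Of 14 gene lists, 6 entries were renamed through synonyms in RefSeq. Words were searched on both strands with 100 bp on either side of the summit. Of the 14 words, 4 are forms of CANNTG, and TTATCG can overlap the DREF word.

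Named were the 20 distal peaks of highest signal, the 5 farthest, up to 15 within 500 bp of a non-coding RNA start, clusters of 3 or more, genes with 3 or more, up to 4 genes per list by signal (all for lists with up to 6, chosen after their values were seen) and 3 peaks on either side of 5000 bp. Peaks ranked far apart in the replicates, and those with CAGGTAG, were named after their values were seen. The members and lists were chosen with earlier results of these data known. The steps were tested on simulated data. Python 3.11.15, numpy 2.4.6, scipy 1.17.1 and matplotlib 3.10.9 were used.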

Additional observations from a re-analysis of the deposited data

How the results depend on the processing

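Of 78 alternative values of 9 results, 27 moved and 51 did not, where a share, mean or median had to stay within the 95% interval of the reported value and the count of peaks within 1.5 times it. With a threshold of 3000 or 10000 bp there were 350 and 98 distal peaks, with 1 start per protein-coding gene 399, with starts of all annotated genes 162, and 93 in the upper part of the IDR list, against 225. The share in introns became 59.2% beyond 10000 bp, 78.7% with 1 start per gene and 75.3% with starts of all annotated genes. The share near a non-coding RNA start became 6.02% with 1 start per gene, 16.9% within 2000 bp and, by construction, 0 with starts of all genes. The share in clusters became 19.4% beyond 10000 bp, 34.3% with 1 start per gene, 19.8% with starts of all genes and 34.7% with gaps of 20000 bp. In the upper part of the list the median signal was 120.1, by construction, and 97.8% of peaks were top-ranked in both replicates. Overlap with both replicates was 100% beyond 10000 bp, with starts of all genes and in the upper part of the list, 96.4% when 50% of both peaks had to overlap and 95.6% for summits within 100 bp. Mean GC was 36.3% in the shorter window of 50 bp on either side and 40.9% with 250 bp on either side, where E-boxes were in 41.3% and 93.3%. From the top-ranked peaks of a single replicate, mean GC was 37.0% and 39.4%. The number of distal peaks was then 226 and 235, the share in introns 65.0% and 65.5%, near non-coding RNA starts 10.6% and 9.36%, in clusters 27.0% and 27.7% and with an E-box 65.0% and 66.8%. Where no reason is given, the cause was not tested. The median signal has no value from a single replicate, whose list may be on another scale, and agreement needs both. No paired analysis was possible because there was only 1 group.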
